A study of Mus musculus with 9 samples.

Results

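The Ifit and Oas antiviral effector genes were described in cultured adipose-derived stem cells (ASCs) of C57BL/6 mice from 3 depots, namely subcutaneous (Sub-ASCs), abdominal (Ab-ASCs) and perivascular (PVASCs) adipose tissue. The set holds 10 of the 54532 genes of the count table, namely Ifit1, Ifit2, Ifit3, Ifit3b, Oas1a, Oas1g, Oas2, Oas3, Oasl1 and Oasl2, and every symbol matched a single Ensembl identifier. The genes were taken by name, and the names were selected on their high expression in Sub-ASCs in these same libraries. Their differences from Sub-ASCs are therefore given as a description without a test, whereas PVASCs and Ab-ASCs were compared by a test. Each group had 3 bulk mRNA libraries from cultures grown for several passages in a medium with serum, leukemia inhibitory factor and FGF, and the labels name no treatment and no genetic change. The labels give neither the age of the mice nor whether replicates came from separate animals, so p-values cover the spread between these libraries, which may be technical. Total reads ranged from 20524173 to 29881036 per library, and 3 reads corresponded to 0.1 to 0.146 CPM, the reads of a gene scaled to library size. All 10 genes passed the filter on low counts over the 9 libraries, Oas3 only through the Sub-ASC libraries.

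Type I interferons bind a receptor whose kinases lead to the complex ISGF3, which holds STAT2 and IRF9 and binds the interferon-stimulated response element (ISRE) in promoters, whereas interferon gamma acts at the GAS element. The Ifit and Oas genes are among the classical targets. IFIT proteins are tetratricopeptide repeat proteins, of which IFIT1 binds viral RNA whose cap lacks ribose methylation, and IFIT2 and IFIT3 assemble with related proteins. OAS1, OAS2 and OAS3 are enzymes that sense double-stranded RNA and make short oligoadenylates, which act as signals in the cell. The OAS-like proteins carry ubiquitin-like domains. Mouse OASL1 lacks the synthetase activity and mouse OASL2 has kept it.

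The promoters of the members were first read for the interferon elements, as these genes were high in the same libraries. RefSeq promoters on GRCm38.p6, covering 250 bases before and 50 bases after the transcript start, were found for 9 of the 10 genes, all but Oas2. The ISRE core was searched as GAAANNGAAA on both strands. It was present in 6 of these 9 genes, namely Ifit1, Ifit3, Ifit3b, Oas1a, Oas1g and Oas3, and in 3.99% of all 27025 genes with promoters of this length. The GAS element was searched as TTCNNNGAA, which reads the same on both strands. It was present in Oas1a and at 1 of the 2 starts of Ifit2, and in 9.55% of all these genes. No match of the ISRE core was found at either start of Ifit2, or in Oasl1 or Oasl2. The stretches that hold the ISRE cores are shown 5′ to 3′ on the strand of the gene, with each core in capitals, because they show how the members differ in the number and the distance of the cores.
Ifit1: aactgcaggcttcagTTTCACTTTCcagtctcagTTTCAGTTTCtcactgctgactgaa
Ifit3: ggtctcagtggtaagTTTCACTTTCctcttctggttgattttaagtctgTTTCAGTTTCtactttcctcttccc
Ifit3b: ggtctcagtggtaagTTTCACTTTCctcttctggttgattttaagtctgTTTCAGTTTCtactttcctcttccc
Oas1a: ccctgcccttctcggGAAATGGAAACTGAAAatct
Oas1g: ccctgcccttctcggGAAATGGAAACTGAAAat
Oas3: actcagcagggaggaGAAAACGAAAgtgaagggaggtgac

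On GRCm38.p6, these stretches lie at chr19:34640770-34640828 for Ifit1, chr19:34583358-34583431 for Ifit3 and chr19:34607754-34607827 for Ifit3b, all on the plus strand. Those of the Oas genes lie on the minus strand, at chr5:120907526-120907560 for Oas1a, chr5:120887614-120887646 for Oas1g and chr5:120777710-120777749 for Oas3. The stretches of Ifit3 and Ifit3b have the same 74 letters. Counted from the transcript start, their cores begin at positions -156 and -122 in Ifit3 and at -188 and -154 in Ifit3b. Those of Ifit1 begin at -104 and -85. In Oas1a the cores overlap each other and begin at -20 and -14, and in Oas1g they also overlap and begin at -18 and -12. Oas3 has a single core, which begins at -75.

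**Figure D1:**
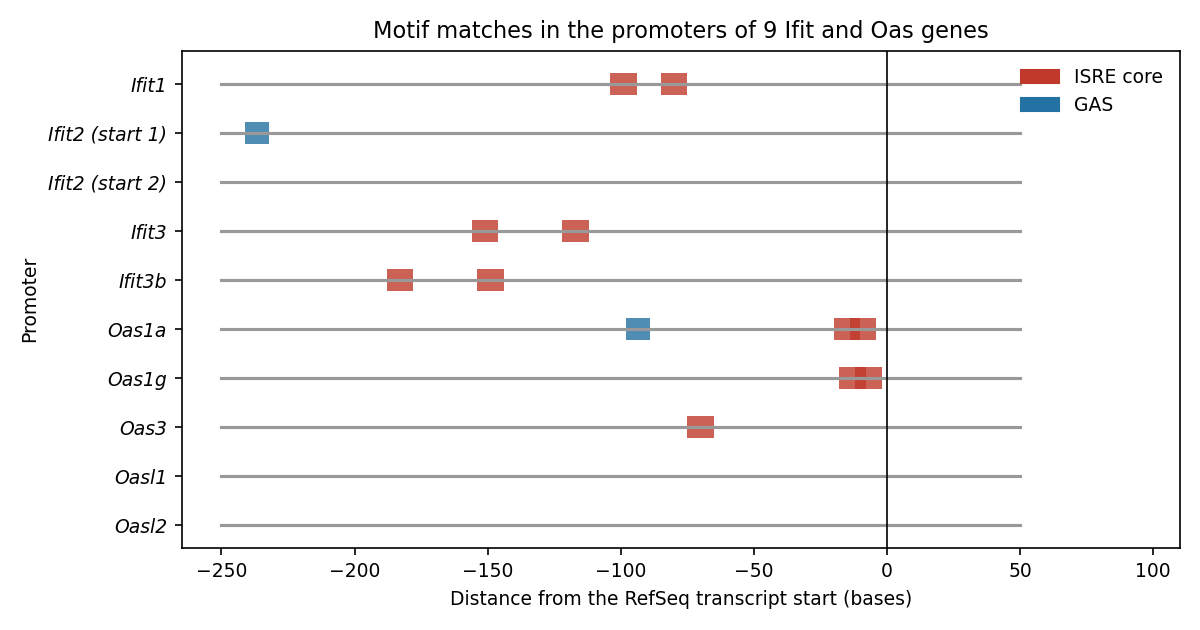
Positions of the ISRE core (red) and the GAS element (blue) in the RefSeq promoters of 9 Ifit and Oas genes, with distance from the transcript start in bases on the x axis and 1 line for each promoter. The cores of Oas1a and Oas1g lie nearest the start, from -20 to -3, those of the other genes lie between -188 and -66, and Ifit2, Oasl1 and Oasl2 have none.

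The genes lie in 3 clusters. The Ifit genes occupy 99.3 kb of chromosome 19, from 34550694 to 34650009 on GRCm38, all on the plus strand. Oas1a, Oas1g, Oas2 and Oas3 lie on the minus strand within 177 kb of chromosome 5, from 120730333 to 120907521, and Oasl1 and Oasl2 on its plus strand, from 114896936 to 114937915. As close copies can split reads, the longest coding transcript of each gene was cut into windows of 100 bases. Of these windows, 31.7% of Ifit3 and 27.4% of Ifit3b were exactly shared between this pair, as were 40.9% of Oas1a and 38.2% of Oas1g. With windows of 50 bases the shares within the pair were 51.2% and 44.5% for the first pair and 57.6% and 54.15% for the other. Of its windows of 100 bases, Ifit1 shared 3.29% with Ifit1bl2, a further gene of the Ifit cluster. Ifit2, Oas2, Oas3, Oasl1 and Oasl2 shared none of this length with another gene, and with 50 bases the share was 7.14% for Ifit1 and 0.792% for Oas3. The read length and the treatment of reads with several sites are not given in the sources used here, so the separate values of Ifit3 and Ifit3b, and of Oas1a and Oas1g, are uncertain. Reads in the 1273 bases where Oas2 overlaps Gm43068, a gene on the opposite strand with 39 reads in all, cannot be told apart by strand, as the library kit does not mark it. The same holds for the 38 bases where Oasl1 overlaps Gm13822, which had 3 reads.

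In Sub-ASCs the 10 genes together took 653 to 678 CPM of each library, after scaling by TMM. The sum was 41.4 to 45.5 CPM in Ab-ASCs and 45.4 to 48.6 CPM in PVASCs. The means were 663 ± 13.5 CPM, 43.1 ± 2.11 CPM and 47.2 ± 1.65 CPM (SD, n = 3), so that the sum was 15.4-fold higher in Sub-ASCs than in Ab-ASCs and 14.0-fold higher than in PVASCs. Every gene was higher in each Sub-ASC library than in each library of the other groups, as were 30.7% of all genes tested, and the selection of the genes favoured this. Against Sub-ASCs, the 10 genes had a median log2 fold change of -4.41 for PVASCs and -5.12 for Ab-ASCs, beside -0.01 and -0.03 over all 16526 genes tested. Without Oas3 the medians were -4.29 and -4.47. These comparisons share the Sub-ASC libraries.

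The 10 genes differed widely in how far they stood apart in Sub-ASCs. Oas3 and Oas2, the large OAS enzymes, had the widest gap. Oas3 was at 45.3, 42.6 and 43.6 CPM in Sub-ASCs, at 0.268, 0.0888 and 0 CPM in Ab-ASCs and at 0.550, 0.440 and 0.254 CPM in PVASCs. Oas2 was at 72.8, 73.6 and 67.7 CPM in Sub-ASCs, at 0.322, 0.311 and 0.267 CPM in Ab-ASCs and at 0.641, 0.474 and 0.890 CPM in PVASCs. The Ab-ASC values of both genes are close to the level of 3 reads per library. From 3285 and 7 reads, Oas3 was 398-fold higher in Sub-ASCs than in Ab-ASCs, with an exact 95% counting interval of 193 to 990. From 5348 and 19 reads, Oas2 was 239-fold higher, with an interval of 153 to 397. Intervals of this kind come from reads pooled over the libraries of a group and cover counting error only. They cover neither the spread between libraries nor the selection of the genes on their level in Sub-ASCs, and are no test. Against PVASCs these genes were 105-fold and 106-fold higher, with intervals of 76.8 to 148 and 82.8 to 138.

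At the other end were Ifit2 and Oasl1. Ifit2, an IFIT protein linked to apoptosis, was at 36.9, 39.2 and 35.9 CPM in Sub-ASCs, at 10.1, 15.3 and 17.0 CPM in Ab-ASCs and at 20.9, 18.8 and 17.4 CPM in PVASCs. Oasl1, known as a translational inhibitor of Irf7, was at 14.6, 12.5 and 14.6 CPM in Sub-ASCs, at 12.3, 8.97 and 9.49 CPM in Ab-ASCs and at 4.06, 5.15 and 4.01 CPM in PVASCs. Its lowest Sub-ASC library thus lay only just above its highest Ab-ASC library. The log2 fold change of Ab-ASCs against Sub-ASCs was -1.39 (standard error 0.14) for Ifit2 and -0.44 for Oasl1. In PVASCs it was -0.97 (standard error 0.14) for Ifit2 and -1.66 for Oasl1.

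The order of the genes within a group was read from FPKM, in which counts are divided by the listed gene length and library size. The order depends on that length, which was 6374 bases for Oasl2 and 7069 bases for Oas3. Their longest coding transcripts had 3123 and 4720 bases. With these shorter lengths their FPKM would be higher, and the order that would result was not calculated. By the listed length, Ifit3 led in Sub-ASCs at 59.1 ± 1.43 FPKM, followed by Ifit1 at 45.4 ± 4.08 (SD, n = 3). Oasl2 stood at 33.3 ± 0.203, Oas1a at 17.6 ± 0.912 and Oas2 at 15.7 ± 0.741 (SD, n = 3). Ifit2, Oas3, Oasl1, Oas1g and Ifit3b followed between 9.30 and 3.92 FPKM. Of these neighbours, only Oas1g and Ifit3b overlapped in their libraries. Ifit3 was above 95.2% of the tested genes in Sub-ASCs, and above 23.2% in Ab-ASCs and 47.1% in PVASCs.

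In Ab-ASCs the order was another. Oasl1 stood first at 3.67 ± 0.550 FPKM, with Ifit2 at 3.38 ± 0.914 and Oas1a at 2.65 ± 0.497 (SD, n = 3), and the ranges of neighbours among these 3 genes overlapped. Oasl2 followed at 1.43 FPKM, and the other genes were below 0.5 FPKM. In PVASCs, Ifit2 stood first at 5.30 ± 0.499 FPKM, apart from Ifit3 at 3.37 ± 0.550 and Ifit1 at 2.82 ± 0.276, which overlapped (SD, n = 3). Oas1g and Oas3 came last in PVASCs, at 0.0690 and 0.0641 FPKM.

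**Figure D2:**
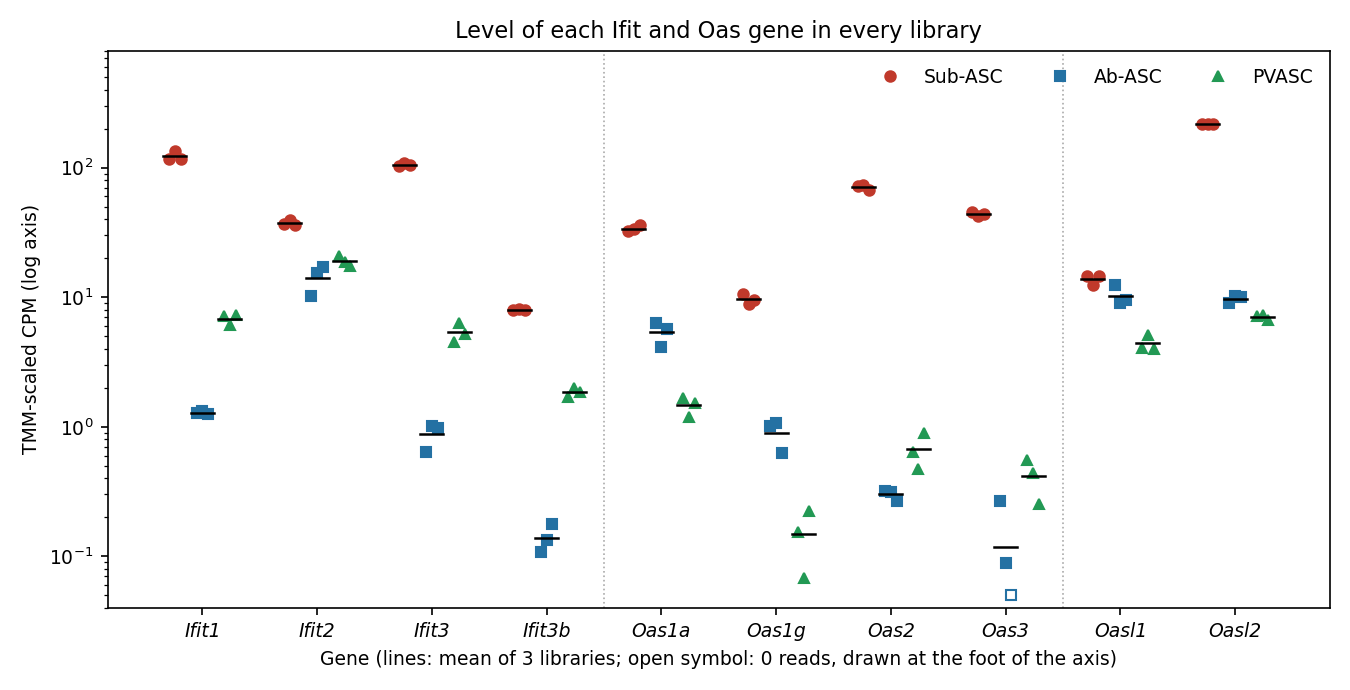
TMM-scaled CPM on a log axis for each of the 10 genes in the 3 Sub-ASC (red circles), 3 Ab-ASC (blue squares) and 3 PVASC (green triangles) libraries, with black lines at group means and an open symbol for a library without reads. Sub-ASC libraries are the highest for every gene, whereas all PVASC libraries lie above all Ab-ASC libraries for Ifit1, Ifit2, Ifit3, Ifit3b and Oas2, for Ifit2 by little, and below them for Oas1a, Oas1g, Oasl1 and Oasl2.

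PVASCs and Ab-ASCs differed at single genes in either direction, and their sums over the 10 genes depended on the scale. With TMM the sums overlapped, the lowest PVASC library being at 45.4 CPM and the highest Ab-ASC library at 45.5 CPM. With the library total alone they did not overlap, as the 10 genes took 0.00497% to 0.00532% of all reads in PVASCs and 0.00376% to 0.00428% in Ab-ASCs, and the mean sums were 51.6 CPM and 40.3 CPM. In the quasi-likelihood test of edgeR, adjusted by Benjamini-Hochberg over all genes, 6 of the 10 genes were higher and 4 lower in PVASCs. With only these groups in the fit, Oas3 did not pass the filter on low counts, and 5 of 9 genes were higher and 4 lower. Among all genes tested, 56.9% differed between these groups, 24.7% higher and 32.1% lower in PVASCs. The median log2 fold change was 0.79 over the 10 genes and 0.42 without Oas3, over genes that went both ways, and over all genes it was -0.06. All 4 Ifit genes were higher in PVASCs, both Oasl genes were lower, and the Oas genes were split, with Oas2 higher, Oas1a and Oas1g lower, and Oas3 higher only in the fit with the Sub-ASC libraries.

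Ifit1, the sensor of cap structure, was at 7.15, 6.10 and 7.28 CPM in PVASCs and at 1.29, 1.33 and 1.25 CPM in Ab-ASCs. Ifit3 was at 4.55, 6.33 and 5.24 CPM in PVASCs and at 0.644, 1.02 and 0.980 CPM in Ab-ASCs. For both genes every PVASC library lay above every Ab-ASC library. Ifit1 was 5.30-fold higher in PVASCs, with a log2 fold change of 2.41 (standard error 0.14, adjusted p = 3.415e-08, edgeR). Ifit3 was 5.96-fold higher, with a log2 fold change of 2.58 (standard error 0.18, adjusted p = 1.777e-07, edgeR).

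Ifit3b, the close copy of Ifit3, had the widest difference. It was at 1.71, 1.998 and 1.84 CPM in PVASCs, from 56, 59 and 58 reads, and at 0.107, 0.133 and 0.178 CPM in Ab-ASCs, from 2, 3 and 4 reads. The ratio was 13.0, with an exact 95% counting interval of 6.71 to 29.0, and the log2 fold change was 3.66 (standard error 0.26, adjusted p = 2.347e-07, edgeR). With the reads of Ifit3 and Ifit3b summed, which avoids the question of shared reads between them, the log2 fold change was 2.79 (standard error 0.16, adjusted p = 3.338e-08, edgeR). Ifit2, given above, had a log2 fold change of only 0.42 (standard error 0.14, adjusted p = 0.02657, edgeR). All its PVASC libraries were above its Ab-ASC libraries, but by little, as the lowest was at 17.4 CPM and the highest Ab-ASC library at 17.0 CPM. Without PVASC replicate 1 its log2 fold change was 0.34 (adjusted p = 0.1053, edgeR), without PVASC replicate 2 it was 0.43 (adjusted p = 0.0554, edgeR) and without Ab-ASC replicate 1 it was 0.24 (adjusted p = 0.03278, edgeR), so the call and its size depended on single libraries.

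Oas1a, an active synthetase, was at 6.28, 4.13 and 5.70 CPM in Ab-ASCs and at 1.68, 1.19 and 1.53 CPM in PVASCs. Oas1g, the neighbouring copy, was at 1.02, 1.07 and 0.624 CPM in Ab-ASCs and at 0.153, 0.0677 and 0.223 CPM in PVASCs, the latter from 5, 2 and 7 reads. No library of the one group reached the other for either gene. The log2 fold change was -1.86 for Oas1a (standard error 0.18, adjusted p = 3.32e-06, edgeR) and -2.55 for Oas1g (standard error 0.38, adjusted p = 0.000143, edgeR). With the reads of this pair summed it was -1.94 (standard error 0.16, adjusted p = 8.091e-07, edgeR).

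Oas2 and Oas3, from the same cluster, had higher mean values in PVASCs, at levels far below those of Oas1a. Their CPM values are given above, and the reads behind them were 21, 14 and 28 in PVASCs and 6, 7 and 6 in Ab-ASCs for Oas2, and 18, 13 and 8 in PVASCs and 5, 2 and 0 in Ab-ASCs for Oas3. The ratio of PVASCs over Ab-ASCs was 2.25 for Oas2, with an exact 95% counting interval of 1.33 to 3.98, and 3.78 for Oas3, with an interval of 1.67 to 10.02. The adjusted p of Oas2 was 0.006288 by edgeR. As Oas3 entered the test through the Sub-ASC libraries alone, no p is given for it. The lowest PVASC library of Oas3 lay below its highest Ab-ASC library, at 0.254 and 0.268 CPM. Its call in the fit of all 9 libraries was lost without Ab-ASC replicate 2, Ab-ASC replicate 3 or PVASC replicate 1. Over all alternatives in which Oas3 was tested, those that lost the call included, its log2 fold change ranged from 1.26 to 3.1.

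Oasl2, the OAS-like enzyme, was at 7.15, 7.25 and 6.71 CPM in PVASCs and at 9.01, 10.2 and 9.98 CPM in Ab-ASCs, and at 218, 216 and 216 CPM in Sub-ASCs. Its log2 fold change between PVASCs and Ab-ASCs was -0.47 (standard error 0.07, adjusted p = 0.0001586, edgeR). Oasl1, on the same strand beside it, had a log2 fold change of -1.22 (standard error 0.15, adjusted p = 2.538e-05, edgeR). In both genes all PVASC libraries were below all Ab-ASC libraries. Among the 10 genes, all PVASC libraries lay above all Ab-ASC libraries for 5 and below them for 4. Among all genes tested the same held for 28.3% and 35.6%.

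**Figure D3:**
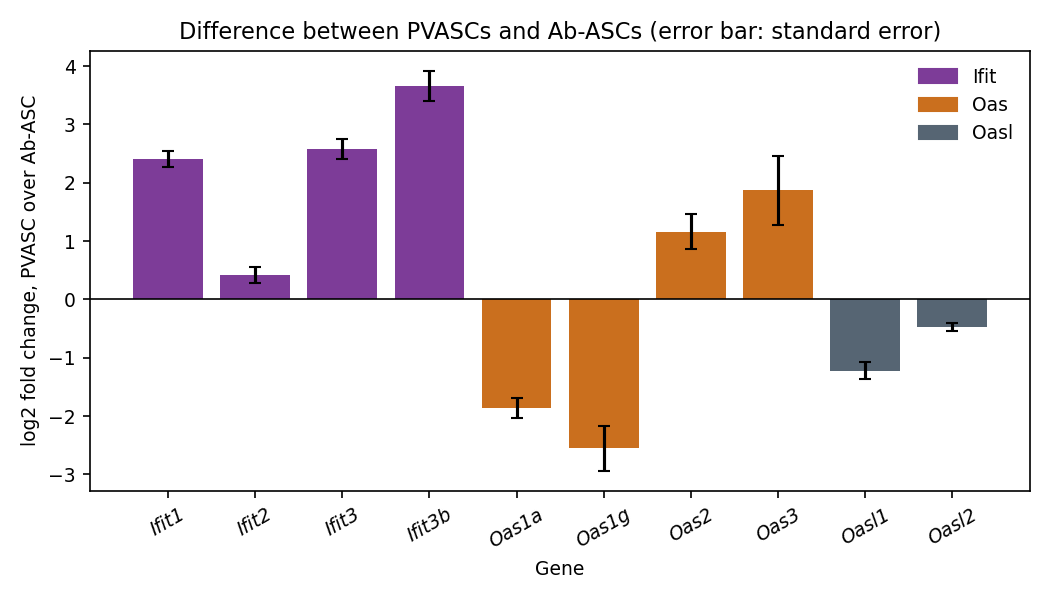
Log2 fold change of PVASCs over Ab-ASCs for each of the 10 genes, with bars from 0 and error bars of 1 standard error from the fit of all 9 libraries. The Ifit genes, Oas2 and Oas3 are above 0, up to 3.66 for Ifit3b, and Oas1a, Oas1g, Oasl1 and Oasl2 are below 0, down to -2.55 for Oas1g.

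Endothelial and mesothelial markers moved between the same groups, where 24.7% of all genes were higher and 32.1% lower in PVASCs. All 6 endothelial markers were higher in PVASCs than in Ab-ASCs, and their summed level was 751 to 755 CPM in PVASCs, 56.1 to 56.9 CPM in Ab-ASCs and 131 to 143 CPM in Sub-ASCs. Of the 7 mesothelial markers, 6 were lower and 1 higher in PVASCs, with sums of 37.8 to 39.8 CPM in PVASCs, 107 to 115 CPM in Ab-ASCs and 2.75 to 2.93 CPM in Sub-ASCs, where Lrrn4 had no read. In bulk libraries, fewer cells of a type and less RNA per cell cannot be told apart, and the part of these cells in the differences of the Ifit and Oas genes was not tested.

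The reads on the 10 genes were divided differently in each group. Of the reads on the 10 genes, the Sub-ASC libraries had 32.7% ± 0.692 on Oasl2, 18.6% ± 1.26 on Ifit1 and 15.9% ± 0.168 on Ifit3 (SD, n = 3). Ifit2 and Oasl1, with 5.63% ± 0.145 and 2.10% ± 0.228, took little there. In Ab-ASCs, Ifit2 took 32.6% ± 7.08 and Oasl1 23.9% ± 5.09, whereas Ifit1 and Ifit3 took 2.995% ± 0.219 and 2.04% ± 0.436 (SD, n = 3). In PVASCs, Ifit2 took 40.3% ± 2.50, Ifit1 14.5% ± 1.65 and Ifit3 11.4% ± 1.95 (SD, n = 3). Ab-ASC replicate 1 differed from the other Ab-ASC libraries, with 24.5% on Ifit2 against 36.0% and 37.4%, and 29.8% on Oasl1 against 21.1% and 20.9%. These shares are of reads and thus favour long transcripts. The share of a gene also depends on the reads of the other members in that group, so shares across groups do not compare levels.

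**Figure D4:**
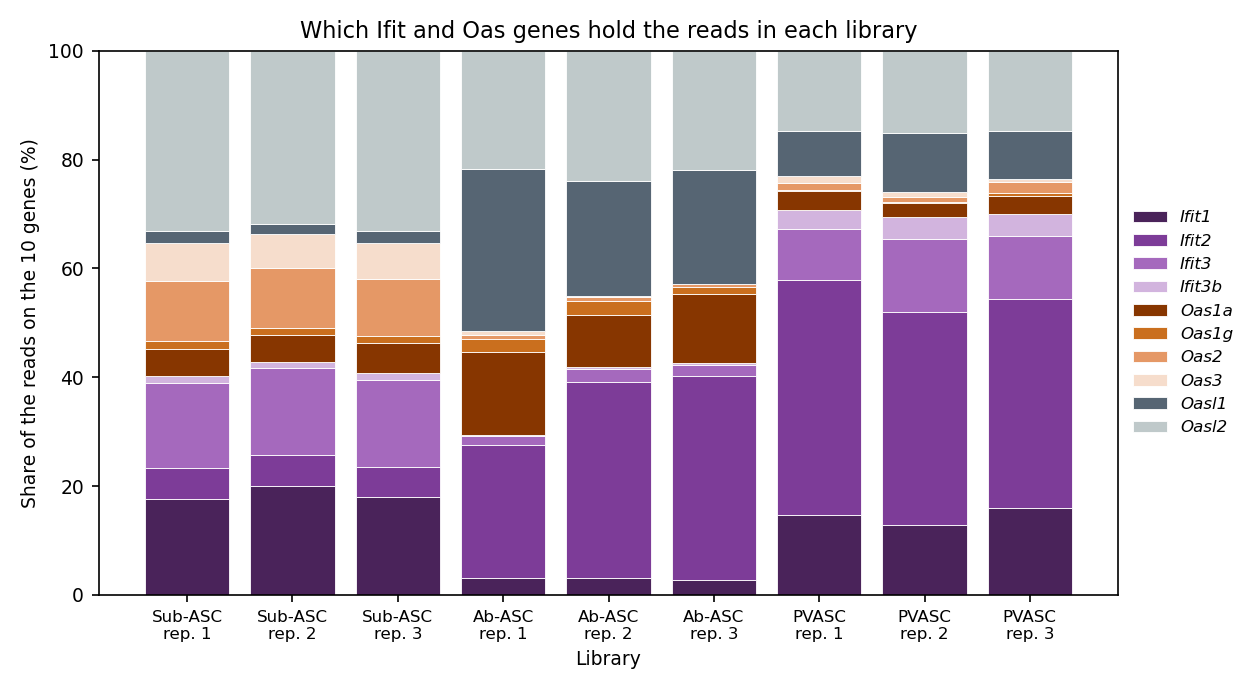
Share of the reads on the 10 Ifit and Oas genes that each gene took, in percent, stacked for each of the 9 libraries, with Ifit genes in purple, Oas genes in orange and brown and Oasl genes in grey. Oasl2, Ifit1 and Ifit3 hold most of the reads in Sub-ASCs, Ifit2, Oasl1 and Oasl2 in Ab-ASCs, and Ifit2 the largest share in PVASCs.

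Pairs of related genes also divided their reads differently between groups. Ifit3b took 7.18%, 6.97% and 7.07% of the reads on Ifit3 and Ifit3b in Sub-ASCs and 27.3%, 24.0% and 26.0% in PVASCs. In Ab-ASCs it took 14.3%, 11.5% and 15.4%, of 14, 26 and 26 reads, and the exact 95% binomial interval of the first ran from 1.78% to 42.8%. The PVASC and Sub-ASC shares did not overlap, and the reads in Ab-ASCs were too few to place their share against either. Oas1g took 24.6%, 21.04% and 20.9% of the reads on Oas1a and Oas1g in Sub-ASCs, 14.0%, 20.51% and 9.86% in Ab-ASCs and 8.33%, 5.41% and 12.7% in PVASCs. The PVASC shares rested on 60, 37 and 55 reads. The exact 95% binomial interval of PVASC replicate 3, 5.27% to 24.48%, reached the Sub-ASC shares, so the difference of this pair is not settled. Oasl1 took 5.44% to 6.35% of the reads on both Oasl genes in Sub-ASCs, 46.9% to 57.8% in Ab-ASCs and 36.2% to 41.5% in PVASCs.

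Of 8 further Ifit and Oas genes outside the 10, 5 had enough reads for testing, and 4 of these were lower in both other groups than in Sub-ASCs. Of these 4, Oas1h and Ifit1bl2 entered the test through Sub-ASCs alone, and without them 2 of 3 genes were lower. The exception was Ifit1bl1, which did not pass the test (adjusted p = 0.2994 for PVASCs and 0.211 for Ab-ASCs, edgeR). Over all genes tested, 35.7% were lower in PVASCs and 38.3% in Ab-ASCs than in Sub-ASCs. Oas1b, which in C57BL/6 mice carries a truncating allele linked to flavivirus susceptibility, was at 11.2 CPM in Sub-ASCs, 0.585 CPM in Ab-ASCs and 1.02 CPM in PVASCs on average. Its log2 fold change against Sub-ASCs was -4.22 in Ab-ASCs and -3.47 in PVASCs. Oas1c was at 3.48, 1.49 and 0.933 CPM in the same order, and was the only one of these genes that differed between PVASCs and Ab-ASCs (log2 fold change -0.68, adjusted p = 0.01145, edgeR), like Oas1a and Oas1g lower in PVASCs. Oas1h had 16, 14 and 20 reads in the Sub-ASC libraries and none in the other 6. No read was counted on Oas1f in any library.

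The genes around the Ifit and Oas genes in the interferon pathway were taken from lists of 65 genes, 52 of which had enough reads. The lists were drawn up with the high interferon response of Sub-ASCs known. Against Sub-ASCs, 45 were lower and 4 higher in PVASCs, and 44 were lower and 5 higher in Ab-ASCs. Ifng, Mx1, Oas1h and Ifit1bl2 entered the test through Sub-ASCs alone, and of the other 48 genes 41 were lower and 4 higher in PVASCs, and 40 lower and 5 higher in Ab-ASCs. Among all genes the shares were 35.7% lower and 34.7% higher in PVASCs, and 38.3% lower and 37.0% higher in Ab-ASCs. Median log2 fold changes were -1.82 and -2.13 over the 52 genes and -1.75 and -1.68 over the 48. Between PVASCs and Ab-ASCs, 16 were higher and 15 lower in PVASCs, with a median of 0.05, or -0.02 over the 48 genes, beside the shares of all genes given above. With only these groups in the fit, 48 genes passed the filter, and 18 were higher and 11 lower.

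Among the interferon genes, reads were nearly absent. Of 11 such genes, Ifnb1, 5 Ifna genes, Ifnk, Ifnl2 and Ifnl3 had no read in Sub-ASCs, and all 11 had none in Ab-ASCs. Ifng, the type II interferon of T and NK cells, was the exception, with 64, 49 and 56 reads in Sub-ASCs, which is 1.92 to 2.75 CPM. It had no read in Ab-ASCs and 0, 17 and 0 reads in PVASCs. As its reads in Sub-ASCs decided that it was tested at all, no p is given. The summed level of 8 T and NK cell markers, of which 4 had enough reads for testing, was 8.64 to 9.56 CPM in Sub-ASCs, 0.356 to 0.489 CPM in Ab-ASCs and 0.0636 to 1.05 CPM in PVASCs. In Sub-ASCs most of it came from Gzmb, at 5.98 CPM in Sub-ASCs, 0.398 CPM in Ab-ASCs and 0.282 CPM in PVASCs on average. Cd3e and Ncr1 had no read in Ab-ASCs or PVASCs and averaged 0.281 and 0.372 CPM in Sub-ASCs, whereas Klrb1c was at 0.0385 CPM in Sub-ASCs, 0.0148 CPM in Ab-ASCs and 0.0429 CPM in PVASCs. Macrophage markers summed to 295 to 305 CPM in Sub-ASCs, 324 to 427 CPM in Ab-ASCs and 316 to 325 CPM in PVASCs, most of it from Lyz2, at 162, 271 and 249 CPM on average. In both Ab-ASCs and PVASCs, 7 of the 9 macrophage markers were lower than in Sub-ASCs and 2, Lyz2 and Csf1r, were higher. The shares of all genes were 35.7% lower and 34.7% higher in PVASCs, and 38.3% lower and 37.0% higher in Ab-ASCs. Ptprc, the leukocyte common antigen CD45, was at 8.93 CPM in Sub-ASCs, 1.41 CPM in Ab-ASCs and 2.81 CPM in PVASCs. Of 6 markers of plasmacytoid dendritic cells, the defining Siglech had no read in any library, and the list summed to 181 to 194 CPM in Sub-ASCs, 53.3 to 78.2 CPM in Ab-ASCs and 149 to 153 CPM in PVASCs, nearly all of it from Tcf4. Adipocyte markers summed to 18.4 to 20.8 CPM in Sub-ASCs, nearly all of it from Plin1, and to at most 0.644 CPM in the other groups, with no read on Lep. The part of these cells in the level of the Ifit and Oas genes was not tested.

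The labelled cell type was checked by 8 markers of mesenchymal stem cells, each of which had reads in all groups. Their summed level was 6918 to 6945 CPM in Sub-ASCs, 3683 to 3805 CPM in Ab-ASCs and 4269 to 4411 CPM in PVASCs. Ly6a, which encodes the surface antigen Sca1 and is itself inducible by interferon, was at 2047 CPM in Sub-ASCs, 21.8 CPM in Ab-ASCs and 111 CPM in PVASCs on average, and Pdgfra was at 2707, 443 and 331 CPM. Against Sub-ASCs, 4 of the 8 markers were higher and 4 lower in PVASCs, the higher ones being Thy1, Eng, Cd44 and Itgb1. In Ab-ASCs 3 were higher and 5 lower, and the shares of all genes are given above.

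The list of the type I receptor, its kinases and the ISGF3 factors held 7 genes, and all were lower in PVASCs and in Ab-ASCs than in Sub-ASCs. Of all genes tested, 35.7% were lower in PVASCs and 38.3% in Ab-ASCs. Stat2 was at 289 CPM in Sub-ASCs, 12.9 CPM in Ab-ASCs and 21.2 CPM in PVASCs. The receptor chain Ifnar1 was at 167, 136 and 104 CPM in the same order. Between PVASCs and Ab-ASCs, Stat2 and Irf9 were higher in PVASCs, with log2 fold changes of 0.72 for Stat2 (adjusted p = 5.974e-07) and 0.52 for Irf9 (adjusted p = 0.0003356, edgeR). In contrast, Ifnar1, Ifnar2 and Jak1 were lower in PVASCs, at -0.38, -0.61 and -0.39.

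In the sensing branch, 9 of 11 genes were lower in PVASCs than in Sub-ASCs and 1 was higher, namely Mb21d1, the DNA sensor cGAS. Over all genes these shares were 35.7% lower and 34.7% higher. Ddx58, the RNA sensor RIG-I, was at 128 CPM in Sub-ASCs, 36.9 CPM in Ab-ASCs and 48.2 CPM in PVASCs. It was higher in PVASCs than in Ab-ASCs by a log2 fold change of 0.38 (adjusted p = 0.000273, edgeR), whereas Ifih1, the RNA sensor MDA5, was lower by -0.58 (adjusted p = 0.002179, edgeR). Irf7, whose translation OASL1 is known to repress, was at 216 CPM in Sub-ASCs, 7.49 CPM in Ab-ASCs and 6.20 CPM in PVASCs, and its difference between the latter groups did not pass the test (adjusted p = 0.128, edgeR).

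All 14 further interferon-induced effectors were lower in PVASCs than in Sub-ASCs, of which 13 passed the filter without the Sub-ASC libraries. Of all genes tested, 35.7% were lower in PVASCs, and the list was drawn up with the high interferon response of Sub-ASCs known. Between PVASCs and Ab-ASCs, 7 of the effectors were higher and 3 lower in PVASCs, beside 24.7% and 32.1% of all genes. Among the higher ones, Ifi44 had a log2 fold change of 2.50 (adjusted p = 4.709e-05), Rsad2, the antiviral enzyme viperin, of 2.43 (adjusted p = 0.0002558) and Mx2, a dynamin-like GTPase, of 1.92 (adjusted p = 0.002504, edgeR), beside the 2.41 of Ifit1 and the 2.58 of Ifit3. Isg15, a ubiquitin-like modifier, had 1.03 (adjusted p = 0.0001213, edgeR). The lower ones were Ifitm3, Zc3hav1 and Samhd1, with -0.28, -0.46 and -0.24. Usp18, which restrains signalling at the receptor, was higher in PVASCs by 0.75 (adjusted p = 0.0006199, edgeR).

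Among genes that act on oligoadenylates or on RNA caps, Pde12, which degrades oligoadenylates, was higher in Ab-ASCs and PVASCs than in Sub-ASCs, by 0.79 (adjusted p = 1.764e-06) and 0.54 (adjusted p = 5.634e-05, edgeR). Abce1, a factor of ribosome recycling from the same list, was higher in PVASCs than in Sub-ASCs by 0.87 (adjusted p = 0.00119) and did not pass the test in Ab-ASCs (adjusted p = 0.6262, edgeR). Of the cap methyltransferases, whose mark hides RNA from IFIT1, Cmtr1 was at 3.54 CPM in Sub-ASCs, 1.34 CPM in Ab-ASCs and 1.59 CPM in PVASCs, and Cmtr2 was higher in Ab-ASCs by 0.51 (adjusted p = 0.001018, edgeR).

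**Figure D5:**
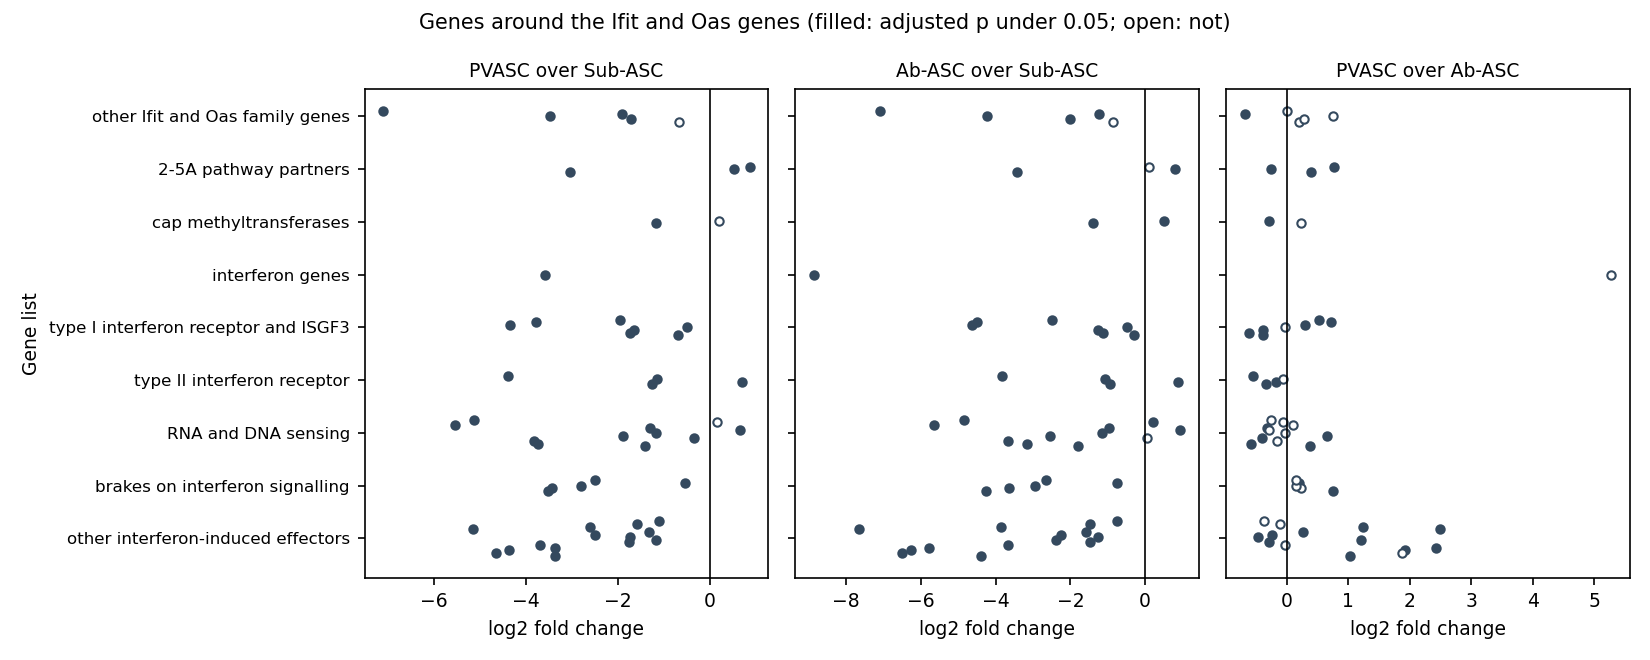
Log2 fold change of each tested gene of the 9 pathway lists, for PVASCs over Sub-ASCs, Ab-ASCs over Sub-ASCs and PVASCs over Ab-ASCs from left to right, with filled points for adjusted p under 0.05. Against Sub-ASCs most points lie below 0, whereas between PVASCs and Ab-ASCs they lie on both sides of 0.

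Genes with the profile nearest to that of the 10 genes were sought by the root mean square difference over the 9 libraries between a gene's centred log2(CPM + 0.5) values and the mean of the 10 genes. The nearest were Ciita, the master regulator of MHC class II, with a difference of 0.0954, Parp9 with 0.1, Pdzd2 with 0.104, Ifitm1 with 0.115 and Duox1 with 0.137. Ciita averaged only 0.107 CPM in Ab-ASCs and 0.235 CPM in PVASCs, and Ifitm1 0.151 and 0.318 CPM. Duox1 was also below 0.5 CPM in these groups. At such levels the added 0.5 narrows the differences, so the likeness of these genes depends on it. None of the 10 genes was itself among the 100 nearest. Oasl2 came closest, with 0.476 at rank 224 of 16526, and Ifit2 and Oasl1 were farthest, with 1.29 and 1.49. The mean profile was thus closer to many other genes than to any single member.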

How the data were processed

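Bulk mRNA libraries of mouse ASCs were grouped by their sample titles, with 3 libraries each for Sub-ASCs, Ab-ASCs and PVASCs. The authors deposited raw read counts per gene and library, neither filtered nor normalized, with the length and position of each gene. The submitters' processing notes list CASAVA 1.8, Bowtie 0.12.2, featureCounts 1.5.0-p3 and the builds mm8 and mm10. The listed chromosome, start and end equalled those of GENCODE M21 on GRCm38 for 98.0% of the genes and for all 10 members. The library kit, NEBNext Ultra RNA, does not mark strand.

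Differences were tested with edgeR 4.0.16 in R 4.3.3, with filterByExpr, TMM, all 9 libraries in 1 fit without covariates, the quasi-likelihood F-test and Benjamini-Hochberg adjustment over 16526 genes at 0.05. Standard errors are the absolute log2 fold change over the square root of F. The fit was tested on simulated data. CPM values use TMM-scaled library sizes, and FPKM was calculated here from counts, listed gene length and library total. DESeq2 1.42.0, RLE factors, other filters, a replicate block and leaving out libraries were tried as alternatives. Promoters came from RefSeq and transcripts from GENCODE M21. Python 3.11.15 was used with pandas 2.3.3 for tables and matplotlib 3.10.9 for plots.

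The members and lists were chosen with earlier results of these data known. Genes named are the 10 members, the pathway and marker lists, genes overlapping a member, and the 5 genes of nearest profile. Some genes of the lists enter the counts but are not reported here by name.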

Additional observations from a re-analysis of the deposited data

How the results depend on the processing

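Over all alternatives, 26 results gave 347 recomputed values, of which 331 kept their direction and side of the threshold or moved little, and none reversed. Between PVASCs and Ab-ASCs, single libraries decided the calls of Ifit2 and Oas3, as given with these genes, so that leaving out 1 library left 4 to 6 members higher and 4 lower in PVASCs. With the reads of the close pairs summed, which was chosen after seeing the data, 5 of 8 were higher, Oas3 included, and 3 lower. Requiring a log2 fold change of 1 or more in size left 5 members higher, or 4 without Oas3, which entered the test through Sub-ASCs alone, and 3 lower, and of the pathway genes 6 higher and 0 lower in PVASCs than in Ab-ASCs, and against Sub-ASCs 0 higher in either group. With the library total alone, the members summed to 649 CPM in Sub-ASCs, 40.3 CPM in Ab-ASCs and 51.6 CPM in PVASCs. Without division by length, 5 members kept their rank in Sub-ASCs, 1 in Ab-ASCs and 5 in PVASCs, and 6 to 8 kept it in Ab-ASCs without 1 library. With the replicate block, the counts of members were 6 higher and 4 lower, the block changed no call of a member, and 16 in place of 15 pathway genes were lower in PVASCs than in Ab-ASCs. Same-numbered libraries showed little shared deviation from their group means, as the correlations across genes lay between -0.0514 and 0.095. With 3 libraries per group this cannot settle whether they came from the same animals. Depth limits Oas3, Oas2 and Ifit3b in Ab-ASCs and Oas1g in PVASCs, each with at most 7 reads in a library.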

Other observations

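PVASC replicate 2 was the only PVASC library with reads on Ifng and Gzmb, with 17 and 25 reads, which is 0.576 and 0.847 CPM. On the Ifit and Oas genes together it had 47.8 CPM, between the 45.4 and 48.6 CPM of the other PVASC libraries. Gm43068, which overlaps Oas2 on the opposite strand, had 10, 25 and 4 reads in the Sub-ASC libraries and none in the other 6, while Oas2 had 1696, 1875 and 1777 reads there.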
